A study of Homo sapiens with 16 samples.

Results

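The AP-1, EGR and MYC immediate early genes were followed in MCF10HER2 cells treated with CP724,714, which blocks the kinase activity of HER2. The 10 genes are FOS, FOSB, FOSL1, JUN, JUNB, JUND, EGR1, IER2, IER3 and MYC. They were chosen by name from 18190 gene symbols, and each has 1 probe on the array. A probe counted as detected on an array when its detection p-value, which sets it against the negative control probes of that array, was under 0.05. Of the 10 genes, 9 were detected on 3 or more arrays and were tested among 12378 probes. JUNB was not detected on any array.

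MCF10HER2 cells are MCF10A cells, a nontransformed line of human breast epithelium, that were stably transduced to over express HER2. Every culture, that of 0 h included, had EGF at 10 ng/mL and hydrocortisone at 1 µg/mL in a medium whose listed supplements hold no insulin. The untreated 0 h culture was the only one without the inhibitor, and 15 parallel cultures received 1 µM CP724,714 and were taken every 3 h from 3 to 45 h, with 1 array each and no replicate. Fresh medium was added with the inhibitor, so time with the inhibitor and time since the change of medium cannot be told apart, and the 3 h array was given a term of its own in the fits. P-values measure the scatter of single arrays about a smooth curve, and the lone 0 h and 3 h arrays were assumed to vary like the others.

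Immediate early genes are switched on within minutes of a growth factor signal, without new protein synthesis, by transcription factors that the kinase cascades modify. FOS and JUN proteins pair through leucine zippers to form AP-1, EGR1 is a zinc finger factor whose promoter is driven by SRF with ETS partners, and MYC pairs with MAX at E-boxes. Most of their mRNAs carry AU-rich elements and decay within the hour, so that their level follows the signal closely. In breast epithelial cells, EGF and HER2 signal to these genes through the RAS and ERK cascade.

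The promoters of 7 of the 10 genes were matched in RefSeq (GRCh38.p14), and FOSL1, IER3 and MYC were not matched. The 150 bases upstream of the starts of FOS, JUN and EGR1 are shown, with those of JUND for comparison. Lines give chromosome 14 for FOS (chr14:75278678-75278827, plus strand), chromosome 1 for JUN (chr1:58784048-58784197, minus strand), chromosome 19 for JUND (chr19:18281623-18281772, minus strand) and chromosome 5 for EGR1 (chr5:138465329-138465478, plus strand), each 5′ to 3′. Capitals mark the CRE core TGACGT on either strand, which reads ACGTCA on the reverse, the JUN-type AP-1 site TGACATCA in JUN, and the CArG boxes bound by SRF in EGR1.
FOS: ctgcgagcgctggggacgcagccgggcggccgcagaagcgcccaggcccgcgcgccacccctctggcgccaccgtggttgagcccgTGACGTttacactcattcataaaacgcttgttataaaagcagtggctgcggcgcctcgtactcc
JUN: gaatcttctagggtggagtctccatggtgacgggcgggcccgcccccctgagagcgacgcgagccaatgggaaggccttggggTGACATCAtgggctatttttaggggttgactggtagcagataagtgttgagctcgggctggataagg
JUND: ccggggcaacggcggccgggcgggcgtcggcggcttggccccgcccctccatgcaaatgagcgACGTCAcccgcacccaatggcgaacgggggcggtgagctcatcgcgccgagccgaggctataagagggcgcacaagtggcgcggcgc
EGR1: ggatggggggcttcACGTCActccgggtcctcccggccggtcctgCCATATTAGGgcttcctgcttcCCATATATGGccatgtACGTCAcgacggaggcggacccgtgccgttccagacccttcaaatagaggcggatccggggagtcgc

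Over the 250 bases upstream, the CRE core was present in FOS, FOSB, JUND and EGR1. On both strands it occurred in 7.42% of 27305 promoters in the table. FOS had 1 copy, 59 to 64 bases before the start, and EGR1 had 2. JUND had 3 matches, of which 2 overlap in the full palindrome TGACGTCA, found in 1.77% of promoters and lying 193 to 200 bases before the start, beyond the bases shown. The JUN-type site TGACATCA, in 2.45% of promoters, was found in JUN alone among the 7. CArG boxes, in 1.14% of promoters, were found in EGR1 alone among the 7, with 2 copies. These matches describe the letters only, and sites more than 250 bases upstream were not searched, for FOS or any other gene.

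Detected probes numbered 10504 to 11629 per array, of 20589. The arrays of 9 h and 18 h were dimmer, with an upper quartile of intensity of 397 and 418 against 553 to 804 elsewhere. Background intensity was 136 to 149 on the arrays from 0 to 21 h and 164 to 174 on those from 24 to 45 h. A change across 24 h therefore falls together with this change of background, and the labels name no chip. As for the cell type, the epithelial genes KRT5, KRT17, LAMB3, CDH3, EPCAM, KRT8, KRT18, KRT19 and GATA3 were detected on all 16 arrays, and CDH1 on 15. Among them KRT17 was higher at 6 to 45 h than at 0 h by 2.70 log2 units (adjusted p = 5.11e-07, limma). KRT8 differed by -0.27 log2 units (adjusted p = 0.0492, limma), and KRT5, LAMB3, CDH3, CDH1, EPCAM, KRT18, KRT19 and GATA3 did not pass. Along a straight line KRT17 and KRT8 rose, by 2.92 and 0.51 log2 units (adjusted p = 1.04e-05 and 0.0232, limma). KRT5 and LAMB3 changed by -0.47 and -0.97 (adjusted p = 0.0162 and 0.00411, limma). At 3 h KRT8 departed from its curve by -0.69 (adjusted p = 0.0192, limma). TP63 of basal cells, detected on 14 arrays, differed by -0.94 ± 0.28 (SE) log2 units (adjusted p = 0.0181, limma). KRT14 was detected on 1 array, and ITGA6 and ESR1 on none. COL1A1, COL1A2 and PDGFRB of fibroblasts and CDH5 and VWF of endothelium were not detected on any array, while DCN and PECAM1 were detected on 16, PTPRC on 7 and CD3E on 1. PECAM1 was higher at 6 to 45 h than at 0 h by 1.04 log2 units (adjusted p = 0.00533, limma), and the summed linear signal of the 3 endothelial genes was 180 at 0 h and 151 to 360 from 6 to 45 h. DCN rose along the course by 0.92 log2 units (adjusted p = 0.00256, limma), with a sum over the 4 fibroblast genes of 314 at 0 h and 284 to 472 from 6 to 45 h. Their part in the results was not tested. The labels give HER2 as over expressed, and its ERBB2 probe was detected on 12 arrays at a mean log2 signal of 6.16. That is near the floor, with JUNB, not detected on any array, at a mean of 5.52. The probe therefore gives no measure of the HER2 level, and whether it reads the transduced HER2 was not tested. The deposited detection p-values of ERBB2, like those of LAMB3, KRT18, ATF4, EGR3, NR4A3 and FBXW7, did not follow the signal on 15 or 16 arrays. Detection of these genes is therefore by p-values set from the probes nearest in signal.

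Several kinds of course appeared among the 9 tested genes. FOS, JUN, JUND, FOSL1 and IER2 lay below the untreated array on each of the 14 arrays from 6 to 45 h, EGR1 fell and came back, IER3 fell late, and MYC had its lowest signal at 3 h. By a moderated F-test in limma, of a spline with 4 degrees of freedom through the arrays, 7 of the 9 genes were time-dependent, against 37.2% of all tested probes. The 2 others were FOSB and MYC. With sets of 4 neighboring time points as a block, the time dependence of FOS and JUND still passed, and that of FOSL1, JUN, EGR1, IER2 and IER3 did not (adjusted p between 0.137 and 0.442, limma).

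**Figure D1:**
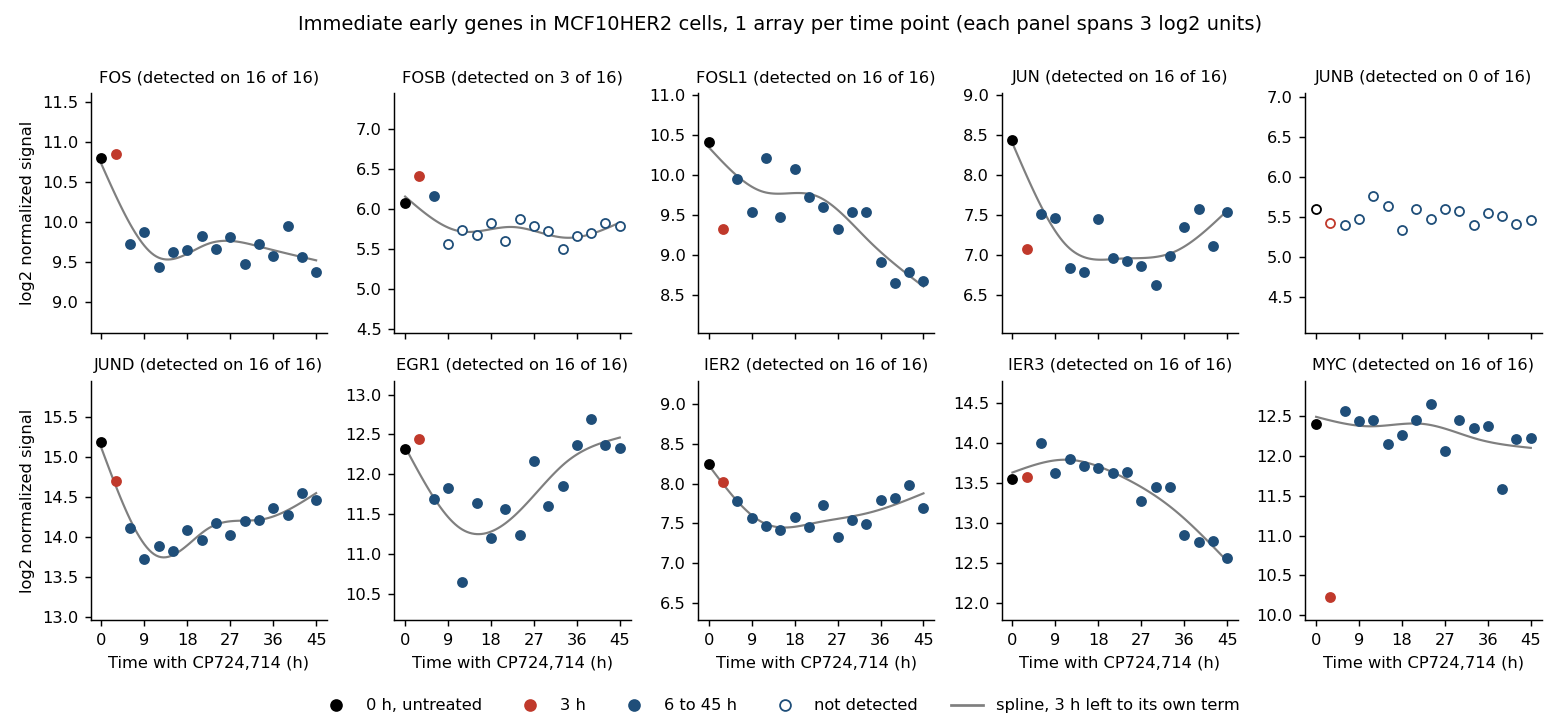
Log2 normalized signal (y axis, each panel 3 log2 units high) of the 10 genes against hours with CP724,714 (x axis), 1 point per array, black for the untreated 0 h array, red for 3 h, blue for 6 to 45 h and open where the probe was not detected; the gray line is the fitted spline. FOS stayed at 10.85 at 3 h and was at 9.73 at 6 h, MYC was at 10.23 at 3 h against 12.40 at 0 h, and the EGR1 points were at their lowest, 10.66, at 12 h.

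In the study's methods, a change of 1.7-fold at any time point chose the genes for a later comparison with MCF10A cells. That comparison was not made here, and only the size criterion was taken over, for 6 to 45 h. By this criterion 8 of the 9 genes differed from 0 h by 1.7-fold or more on at least 1 array from 6 to 45 h. All 8 were lower, against 21.5% of all probes lower and 43.5% changed in either direction. FOSB was the exception. The criterion has no error term, and for MYC it rested on the 39 h array, without which the largest difference was -0.34 log2 units. With the median of the course as baseline in place of 0 h, 4 genes and 19.0% of all probes passed.

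The mean of the arrays from 6 to 45 h was lower than the 0 h array in 5 of the 9 genes, FOS, JUN, JUND, FOSL1 and IER2, and higher in none (limma, adjusted p under 0.05). Among all tested probes 27.1% differed, 13.0% lower and 14.2% higher. All 5 genes also had no overlap between 0 h and the 14 later arrays, a pattern that 16.5% of probes showed in that direction. The comparison rests on 1 untreated array, and in RNA of whole cultures, fewer cells that express a gene and less RNA per cell cannot be told apart.

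FOS, the founding partner of AP-1, had nearly the same signal at 0 h and 3 h, 10.81 and 10.85 log2 units. It was at 9.73 and 9.88 at 6 and 9 h, between 9.44 and 9.82 from 12 to 21 h, between 9.48 and 9.81 from 24 to 33 h, and at 9.58, 9.95, 9.57 and 9.38 from 36 to 45 h. The fall thus came between 3 and 6 h, by 2.18-fold, and no array after it reached the first 2. Over 6 to 45 h FOS was 2.21-fold below 0 h (95% interval 1.71 to 2.85, adjusted p = 9.62e-05, limma). At 3 h it lay 0.52 ± 0.22 (SE) log2 units above the curve, which did not pass the test (adjusted p = 0.217, limma). Its time dependence (adjusted p = 0.00372, limma) was lost without the 0 h array (adjusted p = 0.724, limma), that is, the arrays from 6 to 45 h alone showed no further course that passed.

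FOSB, a FOS relative induced with it, was detected on 3 arrays only, those of 0, 3 and 6 h, at 6.07, 6.41 and 6.16 log2 units. On the 13 later arrays it was not detected, so its signal there is only a bound. The measured values from 9 h on were 5.50 to 5.88, all below those of the first 3 arrays. The difference between 0 h and the later arrays was -0.33 ± 0.18 (SE) and did not pass (adjusted p = 0.201, limma). With 3 detected arrays the gene is at the limit of what these arrays measure.

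FOSL1 encodes FRA1, the FOS family member that accumulates under sustained ERK signaling. It was at 10.41 at 0 h and at 9.32 at 3 h, 2.12-fold lower. From 6 to 21 h the 6 arrays read 9.95, 9.53, 10.21, 9.48, 10.08 and 9.72, so that neighboring arrays differed by up to 1.66-fold. They were between 9.32 and 9.60 from 24 to 33 h and at 8.90, 8.64, 8.79 and 8.67 from 36 to 45 h, the lowest of the course.

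Along a straight line FOSL1 fell by 1.57 ± 0.23 (SE) log2 units over 45 h (adjusted p = 9.94e-05, limma). With IER3 it was 1 of 2 genes with a linear trend, both falling, against 20.8% of probes with a trend, 9.58% falling and 11.2% rising. The slope over the arrays from 24 to 45 h alone, also expressed per 45 h, was -2.22 (adjusted p = 0.00127), and over those from 0 to 21 h alone it was -1.02 (adjusted p = 0.45). With sets of 4 time points as a block the slope was -1.53 and did not pass (adjusted p = 0.528). At 6 to 45 h FOSL1 was 1.97-fold below 0 h (95% interval 1.40 to 2.78, adjusted p = 0.0046, limma). This comparison no longer passed from 0 to 21 h alone (-0.58 log2 units, adjusted p = 0.206) or with no spline among the treated arrays (adjusted p = 0.203). At 3 h it lay 0.84 ± 0.29 (SE) log2 units below the curve, which did not pass (adjusted p = 0.133, limma).

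JUN, the founding JUN family member and the main partner of FOS, fell from 8.44 at 0 h to 7.08 at 3 h, 2.56-fold. It read 7.52 and 7.47 at 6 and 9 h, then 6.84, 6.79, 7.46 and 6.97 from 12 to 21 h and 6.93, 6.87, 6.62 and 6.99 from 24 to 33 h. On the last arrays it read 7.36, 7.58, 7.11 and 7.54. None reached the 0 h array, and the lowest was that of 30 h.

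Over 6 to 45 h JUN was 2.45-fold below 0 h (95% interval 1.67 to 3.59, adjusted p = 0.00127, limma). The size of this change depends on the background correction, because the probe is dim, with an intensity of 240 to 488. Its largest difference, -1.82 log2 units, was -0.99 with no background correction and -0.45 with the detection p-values as deposited, in the same direction. From 24 to 45 h alone the signal rose, by 1.56 log2 units per 45 h (adjusted p = 0.0277, limma). At 3 h JUN was 0.91 ± 0.31 (SE) log2 units below the curve (adjusted p = 0.129, limma). With the detection p-values as deposited, a departure of -0.24 passed (adjusted p = 0.0261, limma). The time dependence of JUN (adjusted p = 0.00608, limma) was lost without the 0 h array (adjusted p = 0.162).

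JUNB, a JUN relative that can oppose JUN, had an intensity of 134 to 195 and was not detected on any array, so no change was measured for it.

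JUND, the JUN family member usually expressed at a steady level, went down in steps over the first 9 h, from 15.19 at 0 h to 14.70, 14.12 and 13.72. It then came up again. From 12 to 21 h it read 13.88, 13.82, 14.09 and 13.97, from 24 to 33 h 14.17, 14.02, 14.20 and 14.21, and from 36 to 45 h 14.37, 14.28, 14.55 and 14.46. The 36 to 45 h arrays lay above all arrays from 6 to 33 h and below both the 0 h and the 3 h array.

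JUND was 2.09-fold lower at 6 to 45 h than at 0 h (95% interval 1.76 to 2.47, adjusted p = 3.73e-06, limma). Its time dependence (adjusted p = 3.69e-05, limma) passed under all 30 alternatives tried. The rise from 24 to 45 h passed on those arrays alone (0.90 log2 units per 45 h, adjusted p = 0.00413, limma). Its lowest array was that of 9 h, one of the dimmer arrays, and its largest difference was -1.48 with quantile normalization and -2.12 with median scaling. At 3 h JUND lay on the curve (0.06 ± 0.15, SE).

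EGR1, the zinc finger factor with the 2 CArG boxes shown above, did not differ between 0 and 3 h by more than the scatter, at 12.32 and 12.44. It read 11.69 and 11.82 at 6 and 9 h, 10.66, 11.65, 11.21 and 11.56 from 12 to 21 h, and 11.25, 12.17, 11.60 and 11.86 from 24 to 33 h. From 36 to 45 h it was at 12.37, 12.69, 12.37 and 12.33, at or above the untreated array on all 4.

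The fall and return of EGR1 passed as time dependence (adjusted p = 0.00604, limma). The mean of 6 to 45 h, which averages both, was -0.52 ± 0.30 (SE) log2 units from 0 h and did not pass (adjusted p = 0.221, limma). From 24 to 45 h alone the signal rose by 2.21 log2 units per 45 h (adjusted p = 0.00621, limma), and without the 0 h array the slope over the whole course, 1.39, passed too (adjusted p = 0.0088). The largest difference from 0 h, -1.66, was the 12 h array, and without that array it was -1.11. Neighboring arrays differed by up to 2.25-fold, between 9 and 12 h, and EGR1 had the largest scatter about its curve of the 9 genes, an SD of 0.367 log2 units.

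**Figure D2:**
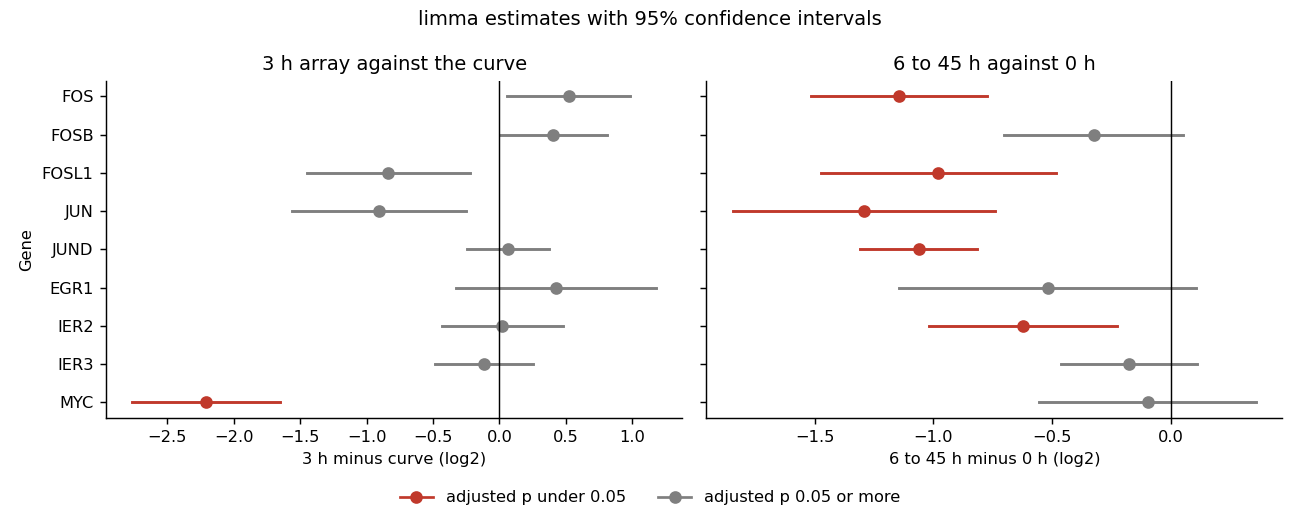
Estimates from limma (points) with 95% confidence intervals (lines) for the 9 tested genes, as the departure of the 3 h array from the curve (left) and as the mean of 6 to 45 h minus the 0 h array (right), both in log2 units on the x axis; red marks an adjusted p under 0.05. MYC was the one gene past the test at 3 h, at -2.21, and FOS, FOSL1, JUN, JUND and IER2 passed on the right, between -1.29 and -0.62.

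IER2, a small nuclear protein of the immediate early response, was at 8.24 at 0 h and 8.01 at 3 h. The later arrays read 7.78 and 7.57 at 6 and 9 h, 7.47, 7.41, 7.58 and 7.46 from 12 to 21 h, 7.73, 7.33, 7.55 and 7.49 from 24 to 33 h and 7.79, 7.82, 7.98 and 7.69 from 36 to 45 h. All 14 lay below the first 2. IER2 was 1.54-fold lower at 6 to 45 h than at 0 h (95% interval 1.17 to 2.03, adjusted p = 0.0192, limma). The probe is dim, with an intensity of 247 to 470, so the size depends on the background correction. Its largest difference, -0.91 log2 units, was -0.53 with no background correction and -0.26 with the detection p-values as deposited. The comparison did not pass with median scaling (adjusted p = 0.0531), with no spline among the treated arrays (adjusted p = 0.0735) or from 0 to 21 h alone (adjusted p = 0.0975). The time dependence of IER2 (adjusted p = 0.0385, limma) was lost under 12 of 30 alternatives, 7 of them the removal of a single array (those of 0, 12, 15, 21, 30, 39 and 42 h).

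IER3, which limits cell death and prolongs ERK signaling, took another course. It was at 13.55 and 13.58 at 0 and 3 h, was at its highest at 6 h, 0.45 log2 units above 0 h, and read 13.63, 13.80, 13.72, 13.68 and 13.63 from 9 to 21 h. It then went down, to 13.64, 13.28, 13.46 and 13.45 from 24 to 33 h and to 12.85, 12.76, 12.78 and 12.56 from 36 to 45 h. The arrays from 6 to 21 h were all above 0 h and those from 36 to 45 h all below.

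Along a straight line IER3 fell by 1.23 ± 0.19 (SE) log2 units over 45 h, or 2.35-fold (adjusted p = 0.000136, limma). It lay in the later arrays, at -2.28 per 45 h from 24 to 45 h alone (adjusted p = 0.000176) against -0.07 from 0 to 21 h alone (adjusted p = 0.934). With the arrays up to 21 h and from 24 h on as blocks, the slope was -1.28 and did not pass (adjusted p = 0.0578), nor did that of -0.50 with sets of 4 time points as a block (adjusted p = 0.714). The mean of 6 to 45 h did not differ from 0 h past the test (-0.18 ± 0.14, SE; adjusted p = 0.381, limma).

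MYC, the E-box factor that drives growth and metabolism, was at 12.40 at 0 h and at 10.23 at 3 h, 4.48-fold lower, and at 12.55 at 6 h. The next arrays read 12.44, 12.44, 12.15, 12.26 and 12.45 from 9 to 21 h, 12.64, 12.05, 12.45 and 12.34 from 24 to 33 h and 12.38, 11.58, 12.21 and 12.23 from 36 to 45 h. The 3 h array was the lowest, well below the next, that of 39 h, and 0 h lay within the range of the later arrays.

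The MYC signal at 3 h was 4.61-fold below the curve (95% interval 3.14 to 6.79, adjusted p = 0.00087, limma). The departure rests on 1 array, the only one at that time. Of the 9 genes, 1 was off its curve at 3 h, and among all tested probes 2.63% were, 1.53% lower and 1.09% higher. MYC had the second lowest departure of the 12378 probes, after OSR1, named here after its value was seen. Under the 28 alternatives tried the departure of MYC was between -2.58 and -2.07 log2 units, and the call held in the 27 of them that had a test. Apart from 3 h no time dependence of MYC passed (adjusted p = 0.486, limma), nor did the mean of 6 to 45 h against 0 h (-0.10 ± 0.22, SE; adjusted p = 0.792, limma), with a 95% interval from -0.55 to 0.36 log2 units.

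**Figure D3:**
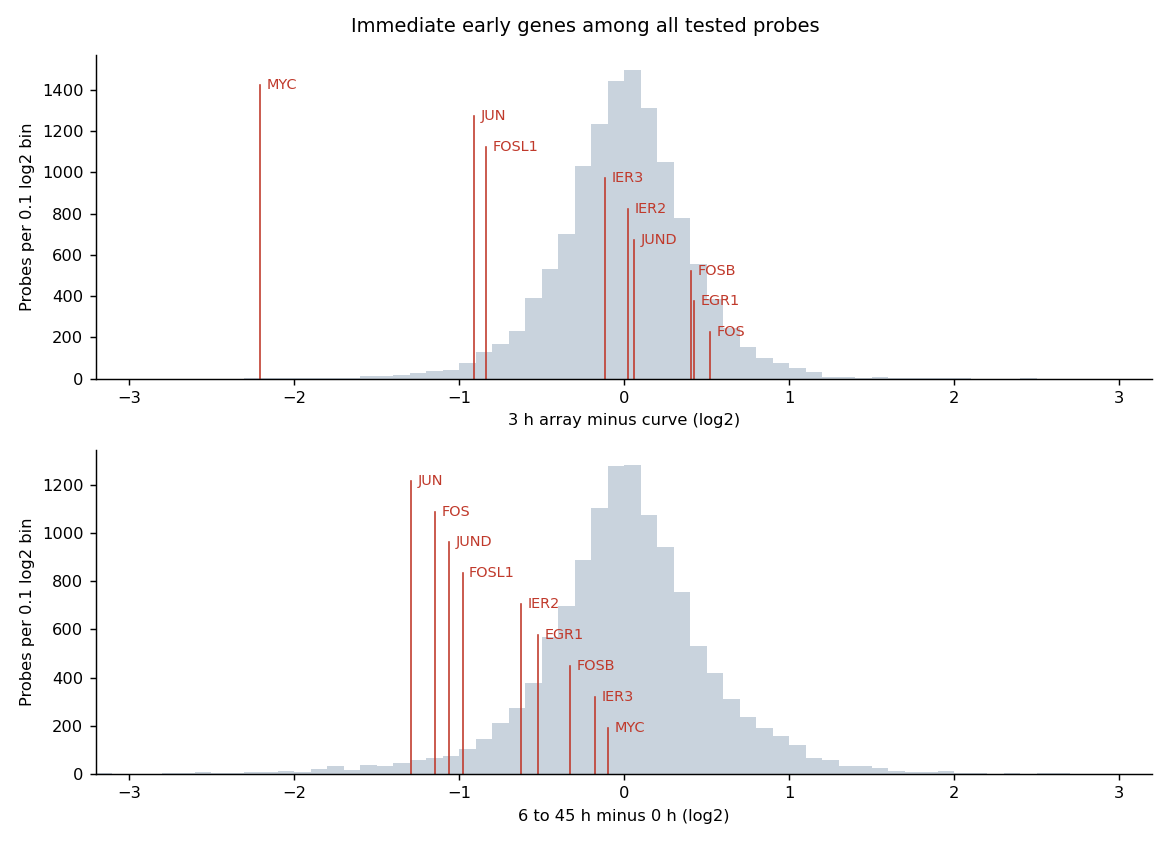
Number of tested probes (y axis, bars of 0.1 log2 units) by the departure of the 3 h array from the curve (upper panel) and by the mean of 6 to 45 h minus 0 h (lower panel), both in log2 units on the x axis, with the 9 tested genes as red lines whose heights carry no value. MYC at -2.21 stands in the far left tail of the upper panel, and all 9 genes lie left of 0 in the lower panel, from -1.29 for JUN to -0.10 for MYC.

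The genes differed at 3 h. FOS and EGR1 kept their 0 h signal there and were lower at 6 h, JUND and IER2 were between their 0 h and 6 h signals, and JUN, FOSL1 and MYC were lower at 3 h than at 6 h. At 3 h 3 of the 9 genes, JUN, FOSL1 and MYC, were 1.7-fold or more below 0 h, and none was as far above it. Among all probes 8.89% had changed as much, 5.19% lower and 3.71% higher. The differences between genes were not tested, since each rests on the same 1 array.

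Across the 16 arrays some courses ran alike and others opposed. JUND and IER2 had a Pearson r of 0.874 (0.857 without the 3 h array), JUN and IER2 had an r of 0.685, and FOS and JUND one of 0.622. FOSL1 and IER3 had an r of 0.857 (0.875 without the 3 h array), and EGR1 ran against both, with an r of -0.668 to FOSL1 and -0.697 to IER3. MYC had an r between -0.612 and 0.313 with the others, a range that the 3 h array set in part, since without it the r of MYC with FOSL1 was 0.562 and that with FOS -0.0809. The genes share the 16 arrays and their normalization, and these values describe them only.

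Among all probes detected on 16 arrays, those most like FOS were UPF3B (r = 0.954) and NARS (r = 0.94). Most like FOSL1 were SAC3D1 (r = 0.932) and GLYCTK (r = 0.932), and most like JUN were KLF2 (r = 0.884), itself an immediate early zinc finger factor, and ATP5D (r = 0.859). For JUND they were NEDD4L (r = 0.916) and BRD2 (r = 0.913), for EGR1 RPL32 (r = 0.907) and VPS24 (r = 0.898), and for IER3 SERPINB7 (r = 0.953) and NP (r = 0.953). SLC12A2 (r = 0.894) was among those most like IER2. Each r is over the same 16 arrays.

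Most of the other immediate early genes tested were lower after 0 h too, against the same lone 0 h array as the members. Their lists were written with earlier results of these data known, so they are no separate support. Of 38 in 2 lists, transcription factors and effectors, 32 were tested. At 6 to 45 h 22 were lower than at 0 h, 10 of 13 transcription factors and 12 of 19 effectors, and 1 was higher, PLAUR, the urokinase receptor, named after its value was seen (1.02 log2 units, adjusted p = 0.000148, limma). Over all tested probes 13.0% were lower and 14.2% higher. The median difference over the 32 was -0.83 log2 units, and that over all tested probes 0.01. The count was between 16 and 23 under the 7 alternatives tried, which were added after seeing the data.

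In the transcription factor list the named genes were BHLHE40 (table symbol BHLHB2), a clock-linked repressor, and ETS2, an ETS factor activated by ERK. The 10 lower genes include EGR2, which was detected on 4 arrays only, so its call is against arrays where it was mostly not detected. BHLHE40 was 12.41 at 0 h and 4.37-fold lower at 6 to 45 h (adjusted p = 2.66e-06, limma). ETS2 was 9.08 at 0 h and 3.61-fold lower (adjusted p = 0.000125, limma). EGR3 and EGR4 were not detected on any array, and NR4A1 and NR4A3 on 1 array each.

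In the effector list they were GDF15, a stress-induced cytokine, and HBEGF, a ligand of EGFR. GDF15 went from 12.11 at 0 h to 10.67 at 3 h and 8.83 at 9 h, and was 6.40-fold below 0 h over 6 to 45 h (adjusted p = 8.71e-07, limma). HBEGF was 8.63 at 0 h and 3.55-fold lower over 6 to 45 h (adjusted p = 3.81e-05, limma). ARC and PTGS2 were not detected on any array.

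At 3 h 4 of the 32 were below their curve, SGK1, RHOB, TRIB1 and KLF2, and 1 was above it, PPP1R15A. These 5 are named after their values were seen. Over all tested probes 1.53% were below their curve at 3 h and 1.09% above it. SGK1, a kinase induced by glucocorticoid and serum, was at 12.93, 11.69 and 12.34 at 0, 3 and 6 h, 0.97 ± 0.15 (SE) below its curve (adjusted p = 0.00338, limma). PPP1R15A, which restores translation after stress, was at 12.98, 13.63 and 12.22, and 1.09 ± 0.19 (SE) above it (adjusted p = 0.00737, limma).

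Of the bZIP genes that share partners with FOS and JUN, 13 of 14 were tested, 7 were time-dependent, 4 were lower at 6 to 45 h than at 0 h (ATF3, ATF4, CEBPB and MAF) and 1, CEBPD, was higher. Over all tested probes 37.2% were time-dependent, 13.0% lower and 14.2% higher. ATF4, CEBPB and CEBPD, at -0.74, -0.47 and 0.73 log2 units, are named after their values were seen. The largest change was that of ATF3, a repressor of the same family that is itself immediate early. It kept its signal from 0 to 3 h, at 11.40 and 11.43, as FOS did, and went to 9.76 at 6 h, 8.90 at 9 h and 8.27 to 8.91 from 12 h on. ATF3 was 6.42-fold lower at 6 to 45 h (adjusted p = 3.33e-07, limma) and 0.92 ± 0.24 (SE) above its curve at 3 h (adjusted p = 0.0484, limma). Its detection p-values as deposited, 0.161 to 0.485, did not follow its intensity of 379 to 3120 and were set from that intensity. MAF, detected on 4 arrays, was at 6.75 at 0 h and 7.82 at 3 h and at 7.31 at 6 h, and it was mostly not detected later, so that it entered the test through its high early arrays and no fold is given. BATF was not detected on any array.

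**Figure D4:**
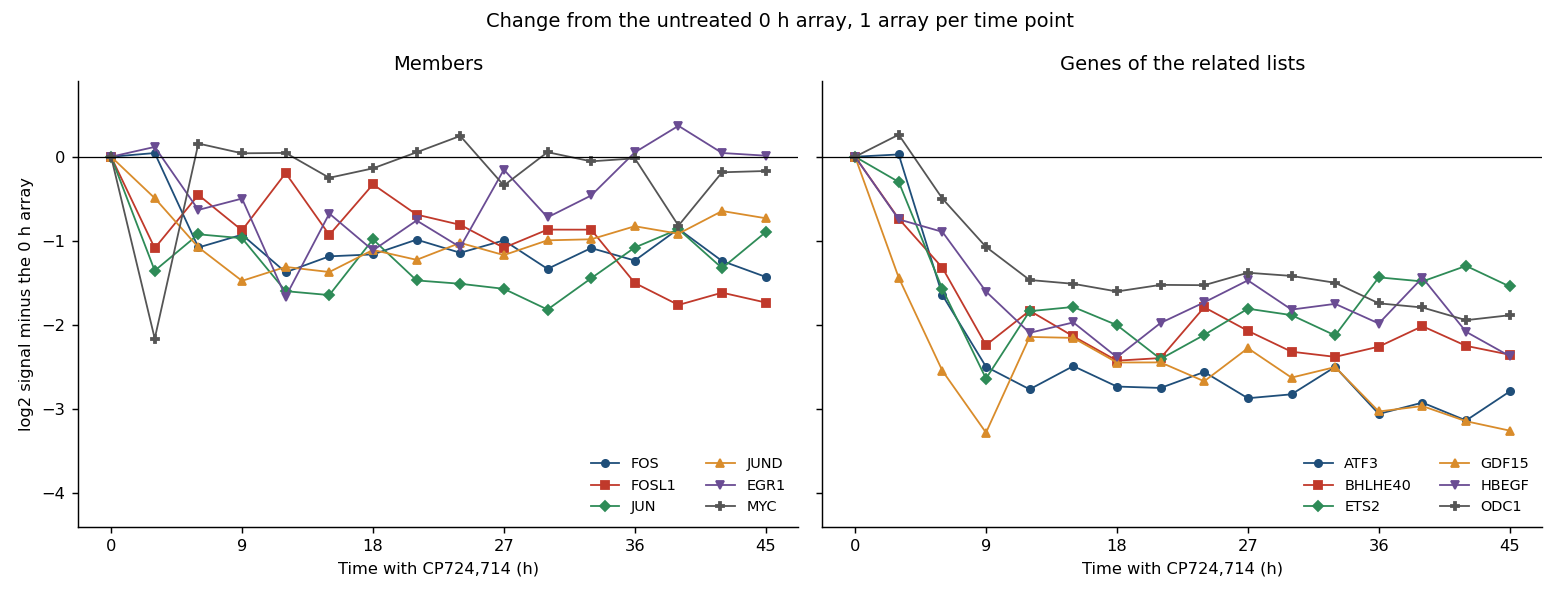
Log2 signal minus that of the untreated 0 h array (y axis) against hours with CP724,714 (x axis), 1 point per array, for 6 of the immediate early genes (left) and 6 genes of the related lists (right). At 3 h FOS and ATF3 were at 0.04 and 0.03, and MYC was at -2.16; GDF15 reached -3.28 at 9 h.

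Among the inputs to these promoters, SRF, ETS and CREB factors, 12 of 13 genes were tested. At 6 to 45 h 2 were lower than at 0 h, against 13.0% of all tested probes. The 2 were SRF, which binds the CArG box, and its coactivator MRTFA (table symbol MKL1). SRF was at 12.13 at 0 h and 12.62 at 3 h, and over 6 to 45 h it was 1.93-fold lower than at 0 h (adjusted p = 0.00205, limma). MRTFA was 1.75-fold lower (adjusted p = 0.00642, limma). The median difference over the list was -0.25 log2 units.

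The list of AU-rich mRNA decay factors holds binders of these elements and also the RNase ZC3H12A, which is not counted as such a binder. Of its 7 genes 4 were tested. At 6 to 45 h 3 were lower than at 0 h, ZC3H12A, ZFP36L1 and ZFP36 (-0.46 log2 units, named after its value was seen). Over all tested probes 13.0% were lower. ZC3H12A, an RNase, was 2.01-fold lower (adjusted p = 0.00122, limma) and ZFP36L1, a decay factor, 1.74-fold lower (adjusted p = 0.000555, limma). ZFP36L1 was also below its curve at 3 h, by 0.78 ± 0.18 (SE) log2 units (adjusted p = 0.0323, limma). ELAVL1 was not detected on any array.

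**Figure D5:**
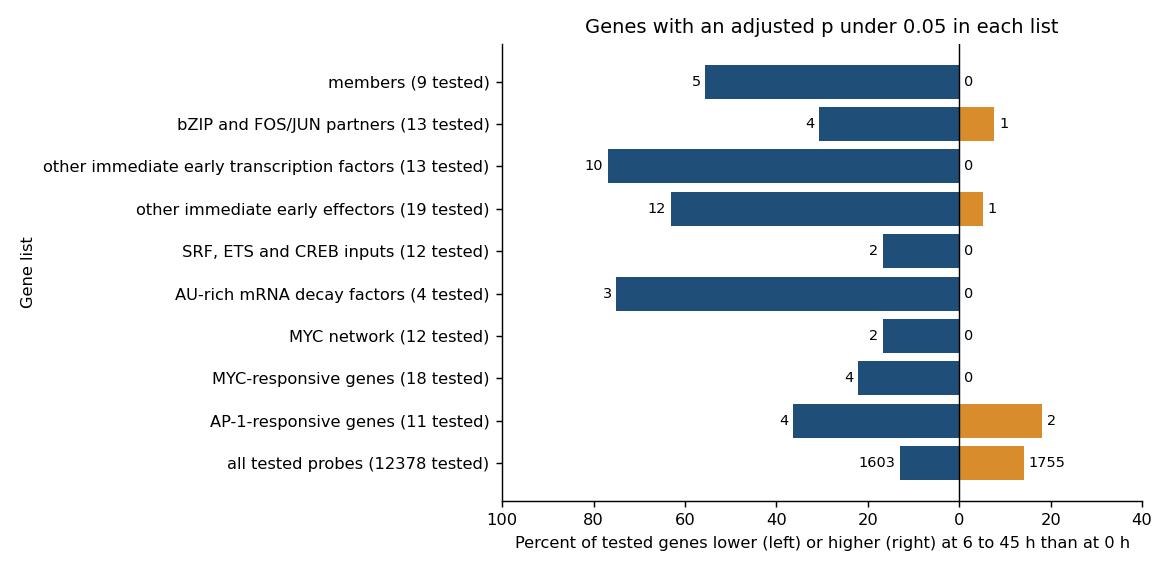
Percent of the tested genes of each list (y axis, number tested in parentheses) that were lower (blue, to the left) or higher (orange, to the right) at 6 to 45 h than at 0 h with an adjusted p under 0.05 (x axis), with the number of genes at each bar; members are the 9 tested genes, 5 of them lower. The other immediate early lists had 10 of 13 and 12 of 19 genes lower, and all tested probes 13.0%. The lower genes include EGR2 of the transcription factors, MAF of the bZIP genes and MMP3 of the AP-1-responsive genes. These were detected on 4 arrays each and mostly not detected later.

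MYC acts through partners of the MAX network and is removed by a ubiquitin ligase. Of 14 MYC network genes 12 were tested. At 6 to 45 h 2 were lower than at 0 h and none was higher, against 13.0% and 14.2% of all tested probes. The median difference was -0.06 log2 units. The lower genes were MXD1, a MAX partner that opposes MYC, 2.67-fold (adjusted p = 0.000159, limma), and FBXW7, which marks MYC for degradation, 2.77-fold (adjusted p = 5.48e-05, limma). USP28 was not detected on any array. None of the 12 was off its curve at 3 h past the test.

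Of 20 genes known to respond to MYC 18 were tested, 4 were lower at 6 to 45 h than at 0 h, and along a straight line 6 fell and 1, APEX1, rose, named after its value was seen (0.34 log2 units over 45 h, adjusted p = 0.00952, limma). Over all probes 13.0% were lower at 6 to 45 h, and along a straight line 9.58% fell and 11.2% rose. None of the 18 was off its curve at 3 h past the test. ODC1, the first enzyme of polyamine synthesis, was at 12.27 at 0 h and 12.53 at 3 h and was 2.81-fold lower at 6 to 45 h (adjusted p = 1.35e-06, limma). TFRC, the transferrin receptor, ranged from 11.24 at 3 h to 13.43 at 24 h and was time-dependent (adjusted p = 0.00155, limma). EIF4E was not detected on any array. The median 3 h departure over the 18 genes was 0.01 log2 units.

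Of 17 genes known to respond to AP-1, 11 were tested, 4 were lower at 6 to 45 h, MMP3, PLAU and CXCL8 among them, and 2 were higher (CD44 and TIMP1). Over all tested probes 13.0% were lower and 14.2% higher. CXCL8, CD44 and TIMP1, at -2.25, 0.81 and 0.88 log2 units, are named after their values were seen. MMP3, stromelysin, was detected on 4 arrays and read 7.93 at 0 h and 9.17 at 3 h. It was mostly not detected later, so that it entered the test through its high early arrays and no fold is given. PLAU, urokinase, was at 10.70 at 0 h and 7.94 at 45 h, and fell by 2.78 ± 0.33 (SE) log2 units along a straight line (adjusted p = 1.27e-05, limma). MMP1, MMP9, MMP10, MMP13 and TGFB1 were not detected on any array. The median difference over the 11 genes was -0.32 log2 units.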

How the data were processed

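RNA from parallel cultures was amplified to biotinylated cRNA and hybridised to Illumina human Ref-8 v2 arrays. The authors deposited the intensity of each probe, before normalization, and its detection p-value, and the study's own comparisons used quantile normalization. The detection p-values of most probes were multiples of 1 in 708 (within 0.002 of a multiple). For 1504 probes, none of them a member, they were no such multiple on 1 or more arrays and did not follow the signal (91 had an intensity over 1000 with p over 0.05), so they were set from the probes nearest in signal on the same array. As deposited they raised the inferred SD of the negative controls from 23.9 to 48.1 intensity units to 212 to 491, which shrank dim signals. This replaced the planned use of the deposited p-values and was chosen after seeing the data.

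Intensities were corrected with neqc (limma 3.58.1, R 4.3.3; offset 16), quantile normalized and taken to log2. Probes detected on 3 or more arrays were tested, leaving out 39.9%. Levels are not comparable between probes. Fits used lmFit and eBayes with a trend, on a spline with 4 degrees of freedom plus a 3 h term, a line plus a 3 h term, and 0 h against 6 to 45 h with a spline of 3 degrees of freedom. P-values were adjusted by Benjamini-Hochberg over all tested probes. The fits were tested on simulated data. Promoters came from RefSeq.

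The members, lists and tests were chosen with earlier results of these data known. Besides the 10 members, the text names the 2 genes of each related list with the largest fitted range among time-dependent ones, undetected defining genes, and the 2 probes most like each time-dependent member. A few genes that these rules pick are not reported here. The precision is limited by 1 array per time point.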

Additional observations from a re-analysis of the deposited data

How the results depend on the processing

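No paired analysis was possible because only 1 array was made at every time. The 7 time-dependent genes became 2 with sets of 4 time points as a block (17.3% of probes) and between 4 and 7 with 1 array left out, the 4 without the 0 h array, where 45.3% of all probes passed. Off the curve at 3 h was 1 gene, 2 with detection p-values as deposited (4.11% of probes), an alternative chosen after seeing the data, and 1 with any array left out. The 2 linear trends were 1 with arrays up to 21 h and from 24 h on as blocks (5.07% of probes), 0 with sets of 4 as a block, 0 from 0 to 21 h alone (2.89% of probes), 5 from 24 to 45 h alone (25.5%), and 2 to 4 with 1 array left out. The 5 genes lower at 6 to 45 h were 3 with no spline among the treated arrays (10.9% of probes) and 3 from 0 to 21 h alone (13.6%). The count was 5 with any array left out. The 8 genes past 1.7-fold were 7 to 8 with 1 array left out, 4 with the median as baseline (19.0% of probes) and 5 at 2-fold (26.0%). As deposited, the detection p-values left 12321 probes tested and gave 6 such genes, without JUN and IER2 (18.6% of probes). Signs turned only in values that did not pass the test, except FOSB and IER2, whose largest differences, which have no test, were 0.43 and 0.40 with the median as baseline, and JUN, whose slope was 1.56 from 24 to 45 h alone (adjusted p = 0.0277) against -0.43 in all arrays, where it did not pass. The rest were, with median scaling, the 3 h departures of JUND (-0.0164) and IER2 (-0.0671) and the slope of IER2 (0.11); with detection p-values as deposited, the 3 h departure of IER2 (-0.0032); the slope of JUND without the 9 h and 18 h arrays (-0.0155), with no 3 h term (-0.0250), with arrays up to 21 h and from 24 h on as blocks (-0.43), with sets of 4 as a block (-1.25) and from 0 to 21 h alone (-2.03); the slope of IER2 from 24 to 45 h alone (0.74), without the 0 h array (0.28) and without the 6 h array (0.0062), with a range of -0.16 to 0.28 with 1 array left out; the slope of JUN without the 0 h array (0.12), with a range of -0.67 to 0.12 with 1 array left out; the slope of MYC with no 3 h term (0.27) and with sets of 4 as a block (0.0081); the slope of EGR1 from 0 to 21 h alone (-1.80); and the difference of IER3 from 0 h over 0 to 21 h alone (0.19). The causes were not tested. Signal over background limits JUN, IER2, FOSB and JUNB.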
